A study of Mus musculus with 14 samples.

Results

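*Expi* (current symbol *Wfdc18*) and *1100001G20Rik* (*Wfdc21*) encode small secreted proteins of the whey acidic protein (WAP) type, and they were followed here together with *Slpi*, a better known protein of the same type. The first pair was chosen by its measured signals, which had been seen to move in opposite ways in cells with 2 acetylation-deficient forms of the NF-κB subunit p65, the triple mutant KTR and the double mutant K314/315R, and *Slpi* was placed beside them for comparison. Every probe of the Agilent Whole Mouse Genome array carrying 1 of the 3 gene names was taken, 3 of 27962 names on the array, which gave 5 of 41174 non-control probes, 2 for *Expi*, 1 for *1100001G20Rik* and 2 for *Slpi*. Because the comparisons KTR over wild type, K314/315R over wild type and KTR over K314/315R chose *Expi* and *1100001G20Rik*, their values in these 3 comparisons are given as a description without a test.

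All cells were *p65*(-/-) NIH 3T3 mouse embryonic fibroblasts (MEFs), an immortal fibroblast line without a functional p65 gene, that had been infected with a lentivirus and selected as pools. The virus carried p65 wild type, KTR (3 lysines changed to arginine), K314/315R (2 of the same lysines changed) or no p65 (the empty vector pTV). After starvation overnight, 30 ng/ml mouse TNFα was added to all 4 lines for 3 h, and a further set of wild type cultures was left without TNFα (0 h). There were 3 arrays per group, each from RNA isolated on another day, and 2 for K314/315R, 14 in all. On slides 1 to 3, each slide held the same replicate number of wild type at 3 h and 0 h, KTR and pTV. Slide 4 held only the 2 K314/315R arrays, so for K314/315R the slide and the cell line cannot be told apart. The p65 transcript (*Rela*, brighter probe) was detected on all arrays, with log2 signals of 1.00 to 1.34 in pTV and 1.52 to 1.54 in wild type cells at 3 h, so this probe does not mark the loss of p65. Of 9 fibroblast markers 8 were well above background on all 14 arrays, whereas the macrophage genes *Ptprc*, *Adgre1*, *Itgam* and *Aif1*, the endothelial genes *Pecam1*, *Cdh5*, *Kdr* and *Tie1*, the epithelial genes *Cdh1*, *Epcam*, *Cldn4* and *Csn2* and the neutrophil genes *S100a8*, *S100a9* and *Elane* were so on none. Other genes of these lists were detected. Of the macrophage genes these were *Csf1r* on 13, *Mpeg1* on 9, *Cd68* on 6 and *Lyz2* on 1 of the arrays. Of the epithelial genes they were *Krt8* on 14, *Krt5* on 13, *Krt14* on 12 and *Krt18* on 5, and of the neutrophil genes *Mpo* on 14, *Camp* on 9 and *Ngp* on 1. At 3 h, *Pdgfra* and *Pdgfrb* were higher in wild type than in pTV (log2 difference 1.77 and 1.99, limma adjusted p = 3.55e-06 and 6.13e-06). *Thy1* (−1.19, adjusted p = 8.53e-05) and *Krt18* (−2.53, adjusted p = 0.000962) were lower. *Krt18* was well above background on 1 wild type array at 3 h and on 3 pTV arrays. The other fibroblast markers had adjusted p-values above 0.05.

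WAP domains are compact folds held together by disulphide bonds, and many of the secreted proteins built from them block serine proteases. SLPI (secretory leukocyte protease inhibitor) inhibits neutrophil elastase and cathepsin G, protects progranulin from cleavage and dampens NF-κB signalling in macrophages. EXPI, the extracellular proteinase inhibitor, is known from the mammary gland. NF-κB is a dimeric transcription factor that TNFα releases into the nucleus, where p65 recruits co-activators to its target genes, and lysines of p65 can be acetylated by the co-activator p300.

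In the RefSeq annotation of GRCm38.p6, *Expi* lies at chr11:83709004-83711360 and *1100001G20Rik* at chr11:83746940-83752646. The 2 genes are neighbours on chromosome 11, with a gap of 35.58 kb, whereas *Slpi* lies apart from them at chr2:164354070-164356507. The RefSeq gene *Wfdc17*, next to *Expi*, had no probe. The promoter windows are the 250 bases before the annotated start site, read 5′ to 3′ on the gene's strand. They were found for *Expi* (chr11:83708754-83709003, plus strand) and *Slpi* (chr2:164356508-164356757, minus strand), but no window was found for *1100001G20Rik*. The 2 windows are shown because both genes differed between cells with and without p65 in the array data. The capitals mark the TATA motif TATAAA.
Expi (Wfdc18): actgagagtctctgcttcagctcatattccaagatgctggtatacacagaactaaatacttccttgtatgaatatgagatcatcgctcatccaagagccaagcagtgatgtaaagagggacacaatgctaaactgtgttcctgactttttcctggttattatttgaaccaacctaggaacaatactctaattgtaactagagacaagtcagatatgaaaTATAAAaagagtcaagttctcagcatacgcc
Slpi: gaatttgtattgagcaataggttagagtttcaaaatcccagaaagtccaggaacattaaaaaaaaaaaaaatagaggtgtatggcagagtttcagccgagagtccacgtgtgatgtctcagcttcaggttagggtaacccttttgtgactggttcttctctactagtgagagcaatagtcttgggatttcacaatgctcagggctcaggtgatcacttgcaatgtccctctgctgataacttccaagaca
On the gene's strand, TATAAA occurred 31 bases before the start of *Expi* and not in the *Slpi* window, and it was held by 7.59% of the 32851 promoter windows in the table. This motif was added after the 2 sequences had been read. A κB-like motif (GGG and CC with 5 bases of any kind between), the AP-1 motif TGANTCA and an interferon response motif (GAAA repeated after 2 bases of any kind) were searched on both strands, and none of them was found in either window, nor was the stricter κB consensus. These motifs were held by 45.8%, 6.75% and 2.98% of all windows, and the stricter κB consensus by 7.25%.

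The level of each probe is given as log2 of its background-corrected signal over the 75th percentile of its own array, so that 0 is the signal below which 75% of the probes lie. *Expi* was detected on all 14 arrays. In wild type cells at 3 h the log2 signal of its brighter probe was 1.09, 0.57 and 1.52, and before TNFα it was 0.46, 0.04 and 1.16. In pTV cells it was −0.49, −1.37 and 0.16. All wild type arrays at 3 h thus lay above all pTV arrays, as held for 16.2% of probes, while the wild type arrays at 3 h and 0 h overlapped. In KTR cells *Expi* had log2 signals of 0.09, −0.58 and −0.09, below every wild type array at 3 h (5.06% of probes were) and within the range of pTV. In K314/315R cells the 2 arrays were far from each other, at 1.23 and 3.00, the lower one inside the wild type range and the higher one above every other array.
The second *Expi* probe had the same order of group means. Its log2 signals were 1.02, 0.32 and 1.21 in wild type cells at 3 h, 0.12, −0.82 and 0.86 with KTR, 1.32 and 2.83 with K314/315R, −0.58, −1.74 and −0.23 in pTV and 0.40, −0.09 and 0.94 in wild type at 0 h. On this probe KTR overlapped wild type, and both K314/315R arrays lay above it, as they did for 19% of probes. The 2 probes had a Pearson correlation of 0.954 over the 14 arrays, which share their groups and slides.

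*1100001G20Rik* was detected on all arrays except those of pTV. Its log2 signal was −1.48, −1.99 and −1.34 in wild type at 3 h and −2.13, −2.06 and −1.62 at 0 h. In KTR it was −2.86, −3.50 and −2.56, lower on every array than in wild type at either time. In K314/315R it was −2.05 and −0.07, so that replicate 1 lay below and replicate 2 above all 3 wild type arrays at 3 h. In pTV the signals of −5.81, −5.10 and −5.07 were not well above background on any of the 3 arrays. As RNA of whole cultures was measured, fewer cells with the transcript and less transcript per cell cannot be told apart.

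*Slpi* was the most even of the 3 genes across the cells that carried p65. The log2 signal of its bright probe was 3.09, 2.80 and 3.00 in wild type cells with TNFα, and it was 2.84, 2.54 and 3.23 with KTR and 2.86 and 3.20 with K314/315R. It was 2.52, 2.29 and 2.27 in wild type at 0 h, just below the other cells with p65, and −2.14, −2.45 and −2.04 in pTV. On the scanner's scale these were intensities of 8168 to 9917 in wild type cells at 3 h and 193 to 280 in pTV cells. A second *Slpi* probe, listed under the same transcript, was not well above background on any of the 14 arrays, so it could not be tested, and every *Slpi* value here rests on 1 probe.

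**Figure D1:**
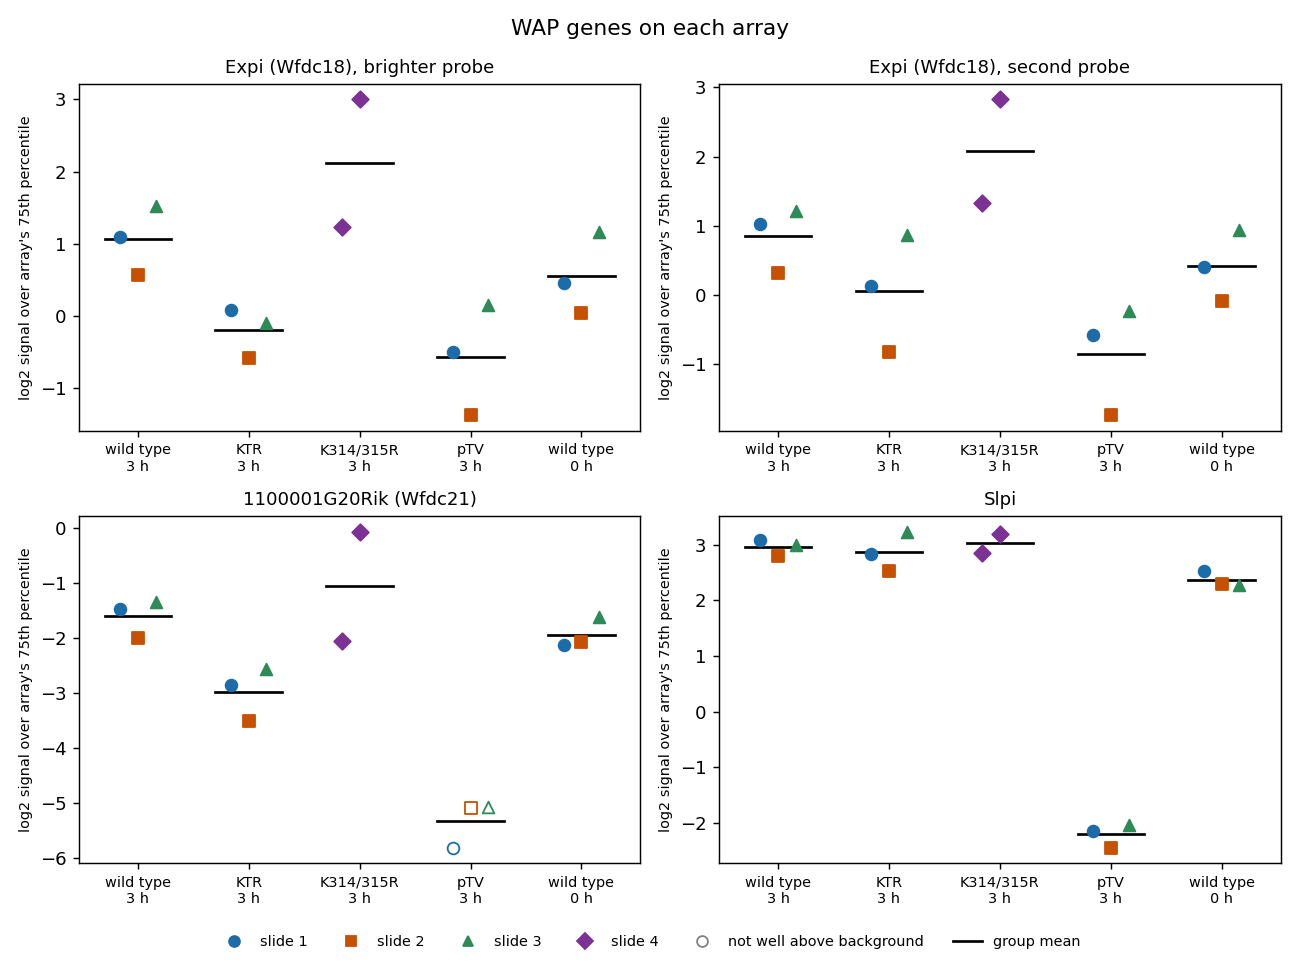
Log2 signal over the array's 75th percentile (y axis) for the 4 tested probes of *Expi*, *1100001G20Rik* and *Slpi* in the 5 groups (x axis), 1 point per array, with the colour and shape of the point giving the slide and the bar the group mean. *Slpi* lies between 2.27 and 3.23 on every array with p65 and at −2.04 or lower in pTV, and for the other 3 probes the 2 K314/315R arrays lie apart from each other.

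First, wild type cells were compared with pTV cells at 3 h. All 3 genes were higher with p65. The arrays of a group repeat RNA of the same selected cell line from other days. A lasting difference between the lines therefore cannot be told apart from the effect of p65. *Slpi* was 36.1-fold higher (log2 difference 5.17, 95% interval 4.79 to 5.56, limma adjusted p = 2.36e-09), *1100001G20Rik* at least 8.91-fold higher (adjusted p = 6.93e-05) and *Expi* 3.09-fold higher (log2 difference 1.63, standard error 0.48, adjusted p = 0.0415). All 4 tested probes were called higher, at a fold over 2 and an adjusted p under 0.05, against 3.59% of the 22172 probes tested. "At least" is used where a group was not well above background on any array. It sets the mean of the brighter group against the lowest signals that were well above background on the dim arrays. A p-value beside such a bound belongs to the measured difference and not to the bound. The wild type arrays at 3 h also entered the comparisons that chose *Expi* and *1100001G20Rik*, so these p-values are not independent of the choice.
The second *Expi* probe gave 3.25-fold (log2 difference 1.70, adjusted p = 0.0485). Within slides 1, 2 and 3, *Expi* was higher in wild type by 1.58, 1.94 and 1.37 on the log2 scale. For *Slpi* the differences within these slides were 5.23, 5.25 and 5.04. *1100001G20Rik* was also higher in wild type on each slide, by an amount that is not given because pTV was not well above background. All 3 genes thus differed in the same direction on each slide. The call for *Expi* was the least firm, in a fit that does not pair the arrays by slide. On the brighter probe it was lost without wild type replicate 1 (adjusted p = 0.112) or 3 (0.145), or without pTV replicate 1 (0.0820) or 2 (0.168). On the second probe it was lost without wild type replicate 1 (0.142), 2 (0.0523) or 3 (0.151), or without pTV replicate 1 (0.0740) or 2 (0.193). With the slide as a random block the adjusted p was 0.00867 and 0.0055 on the 2 probes. The slide as a fixed block, chosen after seeing the data, gave 0.000263 and 9.17e-05. With normexp background correction the calls of *Expi* (log2 difference 1.17, adjusted p = 0.609) and *1100001G20Rik* (1.73, adjusted p = 0.352) were both lost. The second *Expi* probe lost its call too (1.17, adjusted p = 0.401), whereas that of *Slpi* held (4.21).

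The same comparison was made for the mutants. *Slpi* was 33.9-fold higher in KTR than in pTV (log2 difference 5.08, adjusted p = 3.68e-09) and 37.8-fold higher in K314/315R (log2 difference 5.24, adjusted p = 9.42e-09). *1100001G20Rik* was at least 3.45-fold higher in KTR (adjusted p = 0.00268) and at least 13.0-fold higher in K314/315R (adjusted p = 6.54e-05). For *Expi* the difference between KTR and pTV was 0.37 (95% interval −0.68 to 1.43, adjusted p = 0.679) on the brighter probe and 0.91 (−0.24 to 2.05, adjusted p = 0.295) on the second, so no difference was called, though the intervals leave room for one. Within slides 1, 2 and 3 the difference was 0.58, 0.79 and −0.25 on the brighter probe and 0.70, 0.92 and 1.1 on the second, which was thus higher in KTR on every slide. In a fit with the slide as a fixed block, chosen after seeing the data, the adjusted p was 0.156 and 0.00333, with unchanged differences that stayed under the fold of 2 needed for a call. In K314/315R *Expi* was 6.42-fold higher than in pTV (adjusted p = 0.00363), and 7.59-fold on the second probe (adjusted p = 0.00346). Over all tested probes, 3.32% were called higher in KTR and 4.18% in K314/315R than in pTV. Without K314/315R replicate 2, which leaves 1 array in that group, the *Expi* difference fell to 1.8, and to 2.17 on the second probe. The size of the *Expi* difference thus rests in part on replicate 2. With normexp correction *1100001G20Rik* differed by 0.41 in KTR (adjusted p = 0.882) and 1.82 in K314/315R (adjusted p = 0.279), and *Expi* by 2.28 in K314/315R (adjusted p = 0.0571), so these 3 calls were lost. The second *Expi* probe kept its call in K314/315R (2.45, adjusted p = 0.0189). The KTR and K314/315R arrays chose the pair, so the p-values of *Expi* and *1100001G20Rik* against pTV are not independent of that choice. The choice can raise their differences in K314/315R and lower those in KTR. The pTV arrays are shared by all 3 comparisons.

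**Figure D2:**
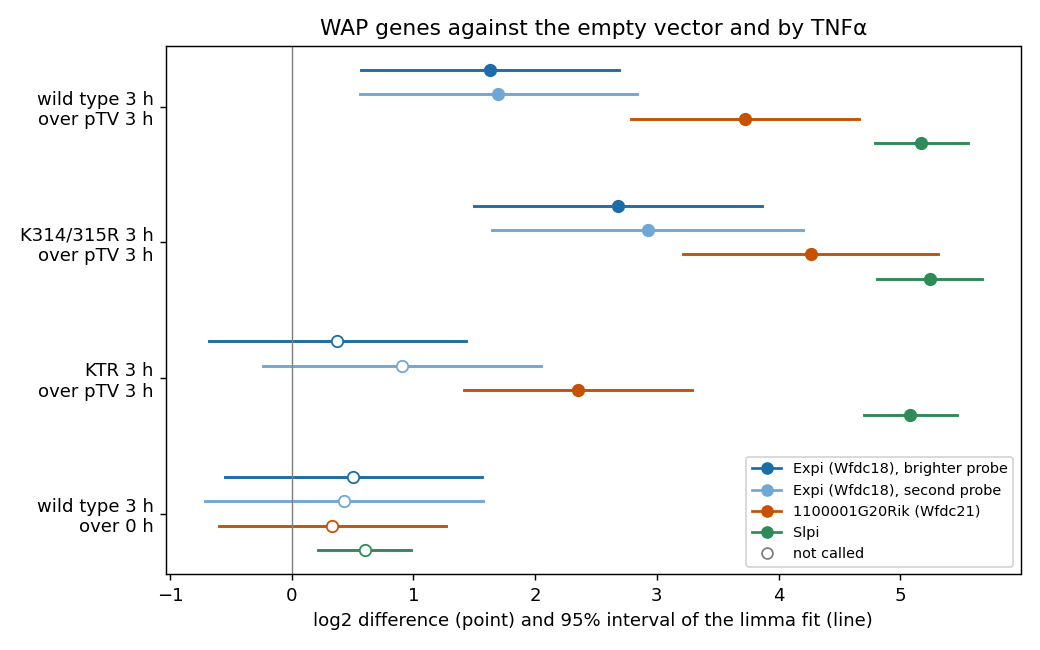
Log2 difference (x axis, point) with the 95% interval of the limma fit (line) for the 4 tested probes in the 4 comparisons of the y axis. Filled points were called. For *1100001G20Rik* over pTV the measured difference is drawn, although pTV was not well above background. All 4 probes are called in wild type and K314/315R over pTV, only *1100001G20Rik* and *Slpi* in KTR over pTV, and none by TNFα.

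Next, the response to TNFα was taken from wild type cells at 3 h against 0 h. None of the 4 probes was called, against 1.12% of tested probes called higher at a fold over 1.8. *Slpi* came closest, as its 3 arrays at 3 h lay above those at 0 h, with a 1.52-fold difference (log2 difference 0.60, 95% interval 0.22 to 0.98, adjusted p = 0.0809). Within the slides the *Slpi* difference was 0.56, 0.51 and 0.73. Of all tested probes, 13.5% likewise had every array at 3 h above every array at 0 h. For *Expi* the difference was 0.51 (95% interval −0.55 to 1.56, adjusted p = 0.692), with 0.62, 0.53 and 0.36 within the slides. For *1100001G20Rik* it was 0.33 (−0.60 to 1.27, adjusted p = 0.786), with 0.65, 0.07 and 0.28 within the slides. The 3 genes were thus detected in starved wild type cells before TNFα. Cells with pTV at 0 h were not analysed here, so the p65 dependence of this level cannot be separated from the 3 h of TNFα.

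The 2 mutants differed from wild type in the way that had selected the pair. In KTR, *Expi* was at 0.419 of the wild type level (log2 difference −1.25) and *1100001G20Rik* at 0.387 (−1.37). Within slides 1, 2 and 3, *Expi* differed by −1.0, −1.15 and −1.62, and *1100001G20Rik* by −1.38, −1.51 and −1.22. The reduction in KTR was thus seen on every slide for both genes. The second *Expi* probe gave −0.90, −1.14 and −0.35, and its mean of −0.79, a ratio of 0.577, lies just above the limit of 0.556 used for a call. Of all tested probes 0.14% were called lower in KTR, or 0.28% with the replicate number as a block. KTR replicates 2 and 3 had the most outlier spots (212 and 326) and the lowest shares of spots well above background (50.7% and 49.9%). With outlier spots kept, the KTR difference was −1.3 for *Expi* and −1.41 for *1100001G20Rik*.
*Slpi*, which was not chosen by its change in the mutants, differed by −0.09 between KTR and wild type (95% interval −0.47 to 0.29, adjusted p = 0.914), with −0.25, −0.26 and 0.24 within the slides. The interval corresponds to 0.720 to 1.22 times the wild type level.

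In K314/315R the group means were above wild type, by 1.05 for *Expi* (2.08-fold), 1.22 for its second probe (2.34-fold) and 0.54 for *1100001G20Rik* (1.46-fold). These means hid 2 unlike arrays. Replicate 1 was within 0.17 of the wild type mean for *Expi* and 0.45 below it for *1100001G20Rik*, while replicate 2 was 1.94 and 1.53 above. Without replicate 2 the difference for *1100001G20Rik* became −0.45, turning its direction, and that for *Expi* 0.17. *Slpi* differed by 0.07 (95% interval −0.36 to 0.50, adjusted p = 0.900). Probes called higher in K314/315R than in wild type were 0.167% of those tested, or 0.329% with the replicate block.
Replicate 2 exceeded replicate 1 by 1.77 for *Expi* (3.40-fold), 1.51 for its second probe and 1.98 for *1100001G20Rik* (3.96-fold). Only 0.118%, 0.181% and 0.0769% of 22121 probes rose as far or further from replicate 1 to replicate 2, where the median over all probes was 0.02 and the SD 0.39. Counting differences of this size in either direction, the shares were 0.253%, 0.411% and 0.149%. *Slpi* differed by 0.33, a difference that 17.1% of probes reached in this direction and 33% in either. The cause of the difference between the arrays was not tested.

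**Figure D3:**
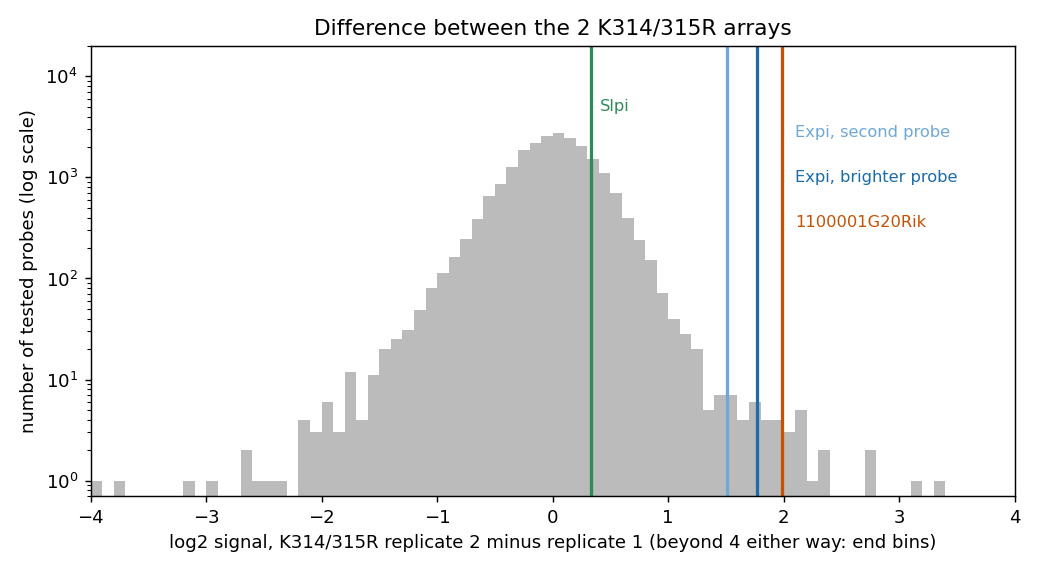
Number of tested probes (y axis, log scale) by the log2 signal of K314/315R replicate 2 minus replicate 1 (x axis), with vertical lines for the WAP probes. *Expi* (1.77 and 1.51) and *1100001G20Rik* (1.98) lie in the right tail and *Slpi* (0.33) in the body of the distribution.

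Between the mutants, KTR was below K314/315R by 2.31 for *Expi*, 2.02 for its second probe and 1.91 for *1100001G20Rik*. Every KTR array lay below both K314/315R arrays for these 3 probes, as was so for 12.2% of probes. Against K314/315R replicate 1 alone the differences of KTR were −1.42, −1.27 and −0.92. *Slpi* differed by −0.16 (95% interval −0.59 to 0.27, adjusted p = 0.688). Of all tested probes, 0.492% were called lower in KTR than in K314/315R, or 0.785% with the replicate block.

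From high to low, the group means of *Expi*, of its second probe and of *1100001G20Rik* followed 1 order: K314/315R, wild type at 3 h, wild type at 0 h, KTR and pTV. On the brighter *Expi* probe all 4 pairs of neighbours in this order overlapped. For *1100001G20Rik* K314/315R overlapped wild type at 3 h, which overlapped wild type at 0 h, and KTR and pTV stood apart from the groups next to them. For *Slpi* the order was K314/315R, wild type at 3 h, KTR, wild type at 0 h and pTV, with overlap among the first 3 groups. Over the 14 arrays the correlation of *Expi* was 0.822 with *1100001G20Rik* and 0.580 with *Slpi*, and that of *1100001G20Rik* with *Slpi* was 0.886. The groups and slides are shared by all these points.
The slide moved with *Expi* as well. In each of the 4 groups on slides 1 to 3, *Expi* was lowest on slide 2, on both probes. *1100001G20Rik* was highest on slide 3 in all 4 groups. The part of the slide in the group differences on slides 1 to 3 is removed in the differences within slides given above.

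The genes around the pair were then examined, taken from the 5 nearest measured genes on each side of each member. Upstream of *Expi* lie genes of CC chemokines, which attract leukocytes. All 3 of these that could be tested were higher with wild type p65 than with pTV. *Ccl3* was 27.3-fold higher as measured (log2 difference 4.77, adjusted p = 9.94e-06), but only 1 of 3 pTV arrays was well above background. *Ccl9* had a log2 difference of 2.36. *Ccl4*, which was not well above background in pTV, was at least 3.88-fold higher (adjusted p = 0.000285). *Ccl3* and *Ccl9* also rose with TNFα (log2 difference 2.40, adjusted p = 0.00828, and 1.05, adjusted p = 0.0122). For *Ccl4* this difference was 1.29 (adjusted p = 0.164). *Ccl6* and *E230016K23Rik* were too dim to be tested. In KTR against wild type the 3 chemokines differed by −0.08 (*Ccl3*), −0.66 (*Ccl4*) and −0.25 (*Ccl9*), with adjusted p-values of 0.971, 0.727 and 0.766. In K314/315R against wild type they differed by 0.36, 0.95 and 0.12 (adjusted p = 0.760, 0.384 and 0.839). The SD of the 2 K314/315R arrays was 0.82 for *Ccl3*, 1.41 for *Ccl4* and 0.31 for *Ccl9*. It was 1.25 for *Expi* and 1.40 for *1100001G20Rik*, so *Ccl4* had a spread like that of the pair.
On the other side of *1100001G20Rik*, *Heatr6*, *Ddx52* and *Synrg* were not called in any of the 7 comparisons. *Dusp14*, a phosphatase gene, was lower in wild type than in pTV, with a log2 difference of −1.18 and an adjusted p of 0.0240 (1.46% of probes were called lower). *Heatr6* starts only 0.991 kb beyond *1100001G20Rik*, and its log2 signal was 2.46 to 2.85 in all 5 group means, with a difference of 0.25 between wild type and pTV (adjusted p = 0.302). The difference seen in *1100001G20Rik* was thus not called in its nearest neighbour.
Around *Slpi*, the seminal vesicle genes *Svs2*, *Svs3*, *Svs5*, *Svs6* and *Svp2* (now *Svs4*), and *Matn4*, *Rbpjl* and *Trp53tg5*, were too dim to be tested. *Sdc4*, which encodes a syndecan, rose with TNFα (log2 difference 0.95, adjusted p = 0.00163). Against pTV its difference in wild type of 0.92 (adjusted p = 0.000494) stayed under the fold needed for a call, while *Sys1* was called in no comparison. Of 19 genes around the 3 members, 9 were tested, and 3 were called higher and 1 lower in wild type than in pTV, against 3.59% and 1.46% of all tested probes, with a median difference of 0.25 over the tested genes and −0.03 over all tested probes.

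**Figure D4:**
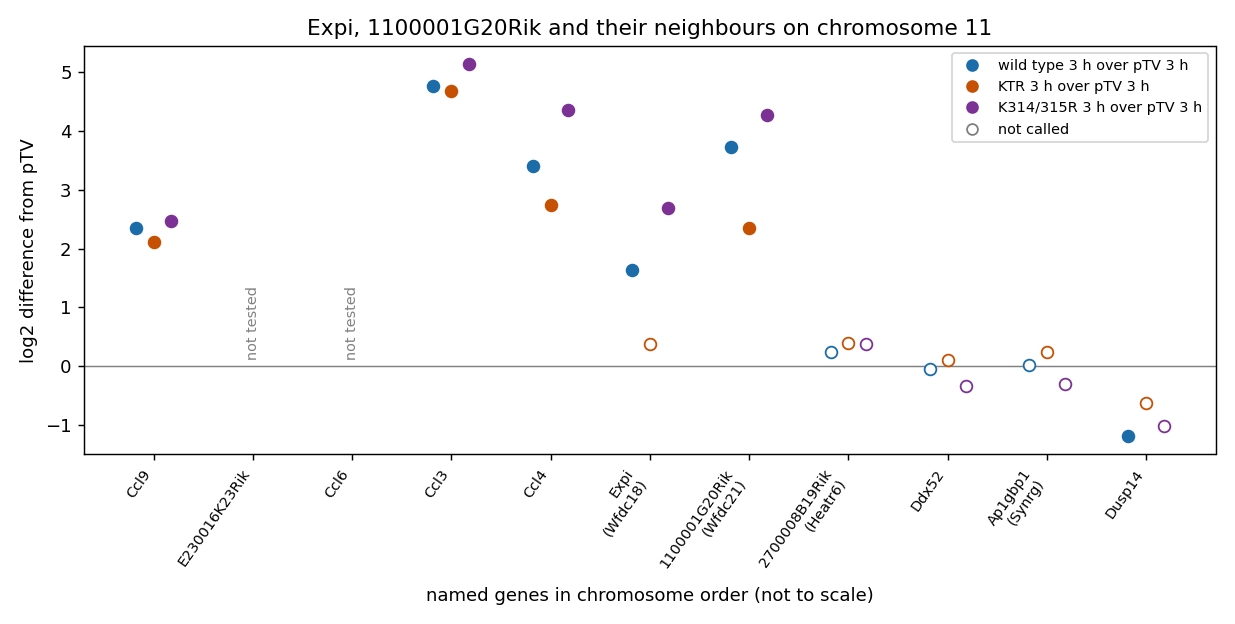
Log2 difference from pTV at 3 h (y axis) in wild type, KTR and K314/315R cells for *Expi*, *1100001G20Rik* and the named genes around them in chromosome order (x axis), where filled points were called. *Ccl4* and *1100001G20Rik* were not well above background in pTV, and *Ccl3* was well above it on 1 pTV array, so their measured differences are drawn. The called higher genes lie from *Ccl9* to *1100001G20Rik*, and *Heatr6*, *Ddx52* and *Synrg*, on the other side, are not called.

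Of 12 other genes of the WAP family on the array, 9 were too dim to be tested, among them *Wap* itself, the whey protein that gave the domain its name. The remaining 3 were *Wfdc1*, *Wfdc2* and *Wfikkn1*. None was called in any of the 7 comparisons, and their median difference between wild type and pTV was 0.22. Between wild type and pTV their log2 differences were 0.22 for *Wfdc1*, 0.42 for *Wfdc2* and −0.06 for *Wfikkn1* (adjusted p = 0.667, 0.645 and 0.888). In KTR against wild type they were 0.03, −0.29 and −0.06 (adjusted p = 0.985, 0.895 and 0.949).

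For each member, the 5 genes whose log2 signals were most closely correlated with its own over the 14 arrays were named among 21589 probes. *Expi* was nearest to *Eef2* (r = 0.928), which encodes a translation elongation factor, *Slc9a3r1* (0.925), the transcript ENSMUST00000086199 (0.924), *Sod3* (0.907), an extracellular superoxide dismutase, and *Cables1* (0.894). *1100001G20Rik* was nearest to *Pim2* (0.984), a kinase, *Clu* (0.978), the secreted chaperone clusterin, *0610011I04Rik* (now *Tmem176a*, 0.969), *Enpp2* (0.968), which encodes autotaxin, and *Mxd1* (0.962). *Slpi* was nearest to *Saa3* (0.996), an acute phase protein, *Ch25h* (0.994), cholesterol 25-hydroxylase, *Il13ra2* (0.994), and the chemokines *Ccl5* (0.993) and *Ccl8* (0.993). The points of these correlations share groups and slides.
As these genes were chosen for their pattern over the same arrays, their differences between wild type and pTV at 3 h are given without a test. The log2 difference was 1.17 for *Pim2*, 1.05 for *Clu*, 1.28 for *Enpp2*, 1.28 for *Sod3* and 0.20 for *Eef2*. *Saa3* and *Ch25h* were not well above background in pTV and were at least 1155-fold and 346-fold higher in wild type.

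Finally, *Camp*, the gene of the antimicrobial peptide cathelicidin, stood on the list of neutrophil markers, and its group means followed the order of the pair. Its mean log2 signal was −3.07 in wild type cells with TNFα, −4.69 with KTR, −2.75 with K314/315R and −3.45 in wild type at 0 h, and it was not well above background on any pTV array. Wild type cells exceeded pTV cells at least 3.22-fold (adjusted p = 2e-05) and KTR cells did so at least 1.05-fold, with 1 of 3 KTR arrays well above background. Against wild type, KTR (−1.61, adjusted p = 0.157) and K314/315R (0.33, adjusted p = 0.756) were not called. KTR was called lower than K314/315R (−1.94, adjusted p = 0.0279). Unlike the pair, *Camp* had 2 similar K314/315R arrays, with an SD of 0.26 against 1.25 for *Expi* and 1.40 for *1100001G20Rik*. Of the 6 neutrophil markers with a probe, *S100a8*, *S100a9* and *Elane* were not well above background on any array, and *Ngp* was so on 1. *Mpo* was well above background on all 14 arrays and did not follow the pair, with log2 differences of −0.72 for wild type over pTV (adjusted p = 0.0860) and 0.02 for KTR over wild type (adjusted p = 0.989). The log2 of the summed signal of the list was −1.81 to −1.33 in wild type cells with TNFα, −2.05 to −1.65 with KTR, −1.67 to −1.20 with K314/315R and −1.89 to −1.30 in pTV. The part of such cells in the results for *Expi* and *1100001G20Rik* was not tested.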

How the data were processed

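Total RNA of 14 cultures was labelled with Cy3 and hybridized to one-colour Agilent Whole Mouse Genome arrays, 1 per culture. The scanner files deposited by the authors come from Feature Extraction, in version 9.1.1.1 on slides 1 to 3 and in version 9.1.3.1 on slide 4, and give a background-corrected intensity per spot. A second deposited table, of normalized values, held the same intensities multiplied by 1 factor per array (within 1% for at least 99.6% of probes). Its scale and direction are therefore known, and it served as an alternative. The study named Rosetta Resolver for its analysis, whose error model was not used here.

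After removal of outlier spots (1 to 326 per array), the mean of a probe's spots was divided by the 75th percentile of the array (967 to 1442), and log2 was taken. Tested were the probes that all arrays of some group showed well above background (22172 of 41174), which held for 4 of the 5 member probes. On each array 49.9% to 57.7% of spots were well above background, and the number of arrays limits the precision. The comparisons used limma 3.58.1 under R 4.3.3, with files read by version 1.17.8 of data.table; a single fit held all 14 arrays, tests were two-sided and p-values were adjusted by Benjamini-Hochberg over every tested probe. A call needed an adjusted p under 0.05 and a fold over 2 against pTV, or over 1.8 (ratio under 0.556) otherwise. Intervals are 95%.

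The fit was tested on simulated data. The alternatives were normexp background correction (offset 50), quantile normalization, the deposited normalized values, other filters, outlier spots kept, the replicate number as a block, the slide as a random block, the 2 compared groups alone, each array left out and the unadjusted p. The slide as a fixed block on slides 1 to 3 was chosen after seeing the data. Replicate numbers pair the arrays on slides 1 to 3, where the number is the slide: deviations from the group means correlated at 0.308 to 0.613 in 18 same-number pairs and at −0.510 to 0.0954 in 36 others. With K314/315R the 8 same-number pairs had −0.101 to 0.411.

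Named were all member probes, the other WAP genes, the 5 measured genes on each side of each member (1 of them is not reported here), a list of *Slpi* partners and target proteases, and the 5 genes most correlated with each member. Where a gene had several probes, the brightest stands for it. Markers of fibroblasts, macrophages, epithelial cells, neutrophils and endothelial cells were listed. The members and all lists were chosen with earlier results of these data known. Array names were updated through accessions and synonyms in the RefSeq table of GRCm38.p6, from which loci and promoter sequences were also taken.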

Additional observations from a re-analysis of the deposited data

How the results depend on the processing

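Of 280 values recomputed under alternatives other than a left-out array, 270 kept their direction and their side of the threshold (for the untested mutant comparisons, their direction, with a shift under 1 SD of the replicates), 8 lost a call and 2 changed sign. Normexp background correction accounted for 5 of the lost calls that bear on the brighter probes, at log2 differences of 1.17 (*Expi*) and 1.73 (*1100001G20Rik*) for wild type over pTV, 0.41 (*1100001G20Rik*) for KTR over pTV, and 2.28 (*Expi*, adjusted p = 0.0571) and 1.82 (*1100001G20Rik*) for K314/315R over pTV. It also turned *Expi* in KTR over pTV to −0.17 and *Slpi* in KTR over wild type to 0.25. Under it pTV replicate 2 had a log2 signal of −1.34 for *1100001G20Rik*, against −3.68 and −3.38 on the other pTV arrays, and over all probes 260 were called higher in wild type than in pTV in place of 795; the cause was not tested. Without a filter on dim probes, when 41173 probes were tested, *Expi* in wild type over pTV kept its difference of 1.63 but not its call (adjusted p = 0.0949). The same held for the second *Expi* probe (1.7, adjusted p = 0.109).

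Of 156 values recomputed with an array left out, 138 were kept in the same sense, 11 lost a call and 7 changed sign. *Expi* ranged from 1.23 to 1.99 for wild type over pTV and from 1.8 to 3.57 for K314/315R over pTV. For KTR over pTV it ranged from −0.03 to 0.74, and it turned without pTV replicate 2. *1100001G20Rik* ranged from −0.45 to 1.53 for K314/315R over wild type, the sign turning without K314/315R replicate 2. *Slpi* ranged from −0.27 to 0.07 for KTR over wild type, from −0.10 to 0.23 for K314/315R over wild type and from −0.34 to 0.01 for KTR over K314/315R, none of them called. With the replicate block, where the number pairs the arrays of slides 1 to 3, no call of the 4 probes changed; *Expi* in wild type over pTV had an adjusted p of 0.0218, and *Slpi* with TNFα 0.0399 at an unchanged 0.60, under the fold for a call. The block moved the number of probes called lower from 31 to 62 for KTR and from 228 to 519 for K314/315R over wild type. *1100001G20Rik* could not be followed in the set of probes detected on all 14 arrays, as it was not so in pTV. The stricter κB consensus was found in neither promoter window. Each level rests on a single probe per gene for *1100001G20Rik* and *Slpi*, and signals near background in pTV limit the size of the first.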

Other observations

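Of 9 genes whose products SLPI inhibits, protects or binds, 6 were too dim to be tested, among them those of the target proteases elastase (*Elane*), proteinase 3 (*Prtn3*) and mast cell tryptases (*Tpsab1*, *Tpsb2*), which were well above background on 0 arrays. The genes of cathepsin G (*Ctsg*) and mast cell chymase (*Cma1*, brighter probe) were so on 6 and 1 of the 14 arrays, but not on every array of a group. The 3 others were not called in any of the 7 comparisons. *Grn*, which encodes the progranulin that SLPI protects, differed by −0.03 between wild type and pTV at 3 h (adjusted p = 0.951) and by −0.13 with TNFα (adjusted p = 0.851). *Anxa2* differed by −0.18 and 0.01. *Plscr1*, a scramblase that binds SLPI, was higher in wild type than in pTV by 0.74 (adjusted p = 0.000300) and with TNFα by 0.78 (adjusted p = 0.00103), below the folds needed for a call. All 3 *Plscr1* probes gave such values.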
